A study of Mus musculus with 7 samples.

Results

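The immediate early genes of the Egr, Ier and Klf families, 10 members in all, were followed in LLC1, a mouse Lewis lung carcinoma line, with and without knockdown of Ddx54. The members are Egr1, Egr2, Egr3, Ier2, Ier3, Ier5, Klf2, Klf4, Klf6 and Klf10. They were taken by gene symbol from a table of 24419 genes, which holds all 10, and 9 of them were among the 11594 genes with enough reads to test. Polyadenylated RNA was sequenced from 4 wild-type libraries and from 3 libraries of cells carrying an shRNA against Ddx54, a nucleolar RNA helicase. All cells grew in serum-containing medium. The labels name neither an shRNA sequence nor a control construct, and give no culture age or time since the last medium change. They also do not say whether the knockdown cells were 1 clone or a pool, or whether replicates came from separate cultures. The p-values therefore reflect only how these libraries scatter, which may be technical.

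Immediate early genes are switched on within minutes of a stimulus such as serum, growth factor or stress, without any new protein being made first. Signals through the Erk kinases and serum response factor reach their promoters, and their short-lived mRNAs fade when the signal ends. Egr proteins are zinc finger transcription factors that bind GC-rich DNA. Klf proteins are a second zinc finger family that binds GC-rich and CACCC elements. Ier2 and Ier5 are related nuclear proteins, whereas Ier3 shares only the name, given for its early response.

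RefSeq promoter windows, which run from 250 bases before to 50 bases after a transcription start (GRCm38.p6), were at hand for 6 of the 10 members. Each line below gives a stretch of 120 bases that ends 31 bases before the start, 5′ to 3′ on the gene's own strand. Capitals mark matches on either strand to the CArG box bound by serum response factor, the cAMP response core TGACG, the GC box GGGCGG, the Egr site GCGTGGGCG, TATAAA and CCAAT. The set shows the most abundant member, Ier3, and Egr2, which holds a CArG box. It also shows the pair Klf4 and Klf2, whose ratio differed most between the groups. Matches elsewhere in a window fall outside the stretch and are not seen here. The window of Klf2 holds 2 GC boxes and 1 TGACG match, although its stretch has no capitals. That of Klf4 holds 4 GC boxes, of which 1 is shown, and 1 TGACG match that is not. The 2 CCAAT matches of Ier3 are also outside its stretch.
Ier3, chr17:35821563-35821682, plus strand: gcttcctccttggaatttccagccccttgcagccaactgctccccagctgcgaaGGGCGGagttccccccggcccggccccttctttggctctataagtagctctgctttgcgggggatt
Klf4, chr4:55532506-55532625, minus strand: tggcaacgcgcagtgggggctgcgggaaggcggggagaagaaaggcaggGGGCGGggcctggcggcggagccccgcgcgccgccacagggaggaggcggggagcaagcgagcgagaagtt
Klf2, chr8:72318912-72319031, plus strand: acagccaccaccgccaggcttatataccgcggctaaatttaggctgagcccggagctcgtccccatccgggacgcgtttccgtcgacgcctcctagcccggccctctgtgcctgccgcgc
Egr2, chr10:67537719-67537838, plus strand: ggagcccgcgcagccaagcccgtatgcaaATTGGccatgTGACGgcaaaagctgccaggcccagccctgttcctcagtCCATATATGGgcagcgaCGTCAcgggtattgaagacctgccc

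A GC box lay in at least 1 window of each of the 6 members, but in Egr2 only in windows 1 and 2, not in 3, 4 and 5. Of all 32851 windows 35.7% hold one, a share per window and not per gene. Egr2 has 5 windows, of which 4 hold a CArG box, against 1.63% of all windows. The box shown lies in 3 overlapping windows, between TGACG matches, which 20.8% of all windows hold, and another window holds a different one. The windows of Ier3, Ier5, Klf2, Klf4 and Klf6 have no match to these CArG letters, and the Egr site, in 0.612% of all windows, is in none of the members' windows. Over all windows, TATAAA was in 13.6%, CCAAT in 37.4%, the Ets core CCGGAA in 14.9% and the E box CACGTG in 7.15%; the last 2 are not marked in the stretches shown. A match describes letters in these windows and no more. In the mRNAs, the pentamer ATTTA, the core of AU-rich decay elements, was in the 3′ untranslated region of 9 of the 10 members (all but Ier2) and of 71.4% of tested genes with such a region. Ier3 held 5 copies in 613 bases, but no copy of a longer AU-rich nonamer (TTATTTA followed by 2 bases that are A or T). That nonamer was in Egr2, Egr3 and Klf10 and in 18.3% of tested genes with such a region. The densest stretch of Ier3 is shown beside the single copy in Klf2, with the pentamer in capitals.
Ier3 mRNA: attaatATTTAtgtATTTAtgtata
Klf2 mRNA: acagactgctATTTAttggacctta

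The genes themselves are short. Their annotated spans had a median of 5.24 kb and reached 9.24 kb at most, against a median of 23.6 kb over the tested genes with an annotation. Ier2 and Ier5 consist of 1 exon, as do 3.33% of tested genes. No other gene of the GENCODE M21 annotation overlaps any of the 10, on either strand.

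The libraries held 14987324 to 18673395 counts. Levels are given as CPM (counts scaled to a common library size with the TMM factors of edgeR), as mean ± SD over n = 4 wild-type and n = 3 knockdown libraries. Ddx54 itself ranged from 78.6 to 83.2 CPM without and from 39.2 to 45.9 CPM with the shRNA (log2 fold change -0.90, SE 0.096, adjusted p = 6.55e-09), so none of the 7 libraries went against its label. Of 3 tested carcinoma and epithelial markers 2 fell, Krt18 and Krt19, where 15.3% of all tested genes passed as lower. The third, Krt8, was at 20.3 and 23.6 CPM and did not pass (log2 fold change 0.22, adjusted p = 0.373, edgeR). Krt18 was at 217.5 ± 4.77 and 131.7 ± 4.02 CPM, while Epcam, Cdh1 and Cldn4 were at or near 0 in both groups. The 8 leukocyte markers summed to 2.18 to 5.03 CPM in wild-type and 2.80 to 4.78 CPM in knockdown, with Cd3e and Nkg7 at 0 in all 7 libraries. Summed endothelial markers stayed below 1 CPM. The 8 fibroblast markers summed to 23.5 to 30.2 CPM and 28.9 to 32.5 CPM, with Thy1 and Postn at 0, and none of the 4 tested passed with edgeR. Closest was Pdgfra (19.0 and 24.5 CPM, log2 fold change 0.37, adjusted p = 0.0578), which passed with DESeq2 (adjusted p = 0.0323) and with library totals alone (adjusted p = 0.0195). The 1 tested leukocyte marker, Cd68, did not pass (0.05, adjusted p = 0.94). The part of these markers in the results was not tested.

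Of the 9 tested members, 6 fell in knockdown: Egr1, Klf4, Ier3, Ier5, Klf10 and Ier2, in order of size. Among all tested genes 15.3% passed as lower and 29.4% in either direction (edgeR quasi-likelihood test, adjusted p under 0.05). Egr3, Klf2 and Klf6 did not pass. As higher, 0 members passed with edgeR, where 14.1% of all tested genes passed. There were also 0 with DESeq2 or limma-voom, where 14.8% and 15% of all tested genes passed as higher. Klf2, the only tested member with a positive log2 fold change, had an unadjusted p of 0.0771 (edgeR). With library totals alone, 11.6% of all tested genes passed as lower and 19.1% as higher, and 6 members still passed as lower. The groups' ranges did not overlap for 8 of the 9 tested members, Klf6 being the exception, against 35.1% of all tested genes. The median log2 fold change was -0.51 over the 9 members and 0.001 over all tested genes. Each of these 9 members had at least 144 reads in every library, so none entered the test through the reads of a single group. In bulk RNA, fewer cells that express a gene and less RNA per cell cannot be told apart.

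**Figure D1:**
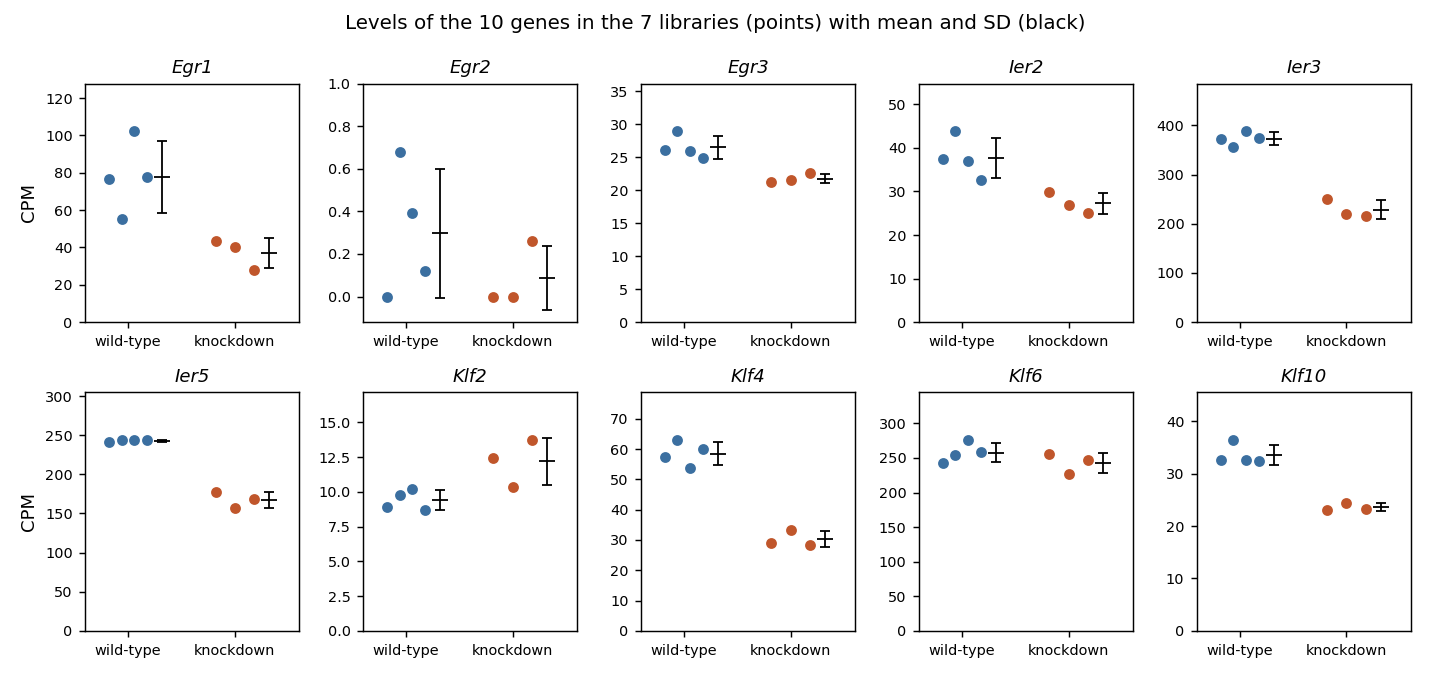
Level of each of the 10 genes (CPM, linear axis) in the 4 wild-type (blue) and 3 knockdown (orange) libraries, with the mean and SD in black. The knockdown points of Egr1, Egr3, Ier2, Ier3, Ier5, Klf4 and Klf10 lie below all wild-type points, those of Klf2 lie above, those of Klf6 overlap, and Egr2 is near 0.

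Egr1, a growth factor-responsive activator, spans bases 34859823 to 34864984 of chromosome 18 on the plus strand (mm10 coordinates of GENCODE M21, here and below). Its levels were 76.5, 55.1, 102.2 and 77.5 CPM in wild-type 1 to 4 and 43.3, 40.2 and 28.1 CPM in knockdown 1 to 3, the order kept for every gene that follows. All 3 knockdown libraries were below the lowest wild-type library, but the wild-type libraries also differed widely, by a coefficient of variation of 24.7%. Mean levels were 77.8 ± 19.2 and 37.2 ± 8.04 CPM (log2 fold change -1.06, SE 0.22, 95% interval -1.57 to -0.55, adjusted p = 0.00719). An exact permutation test (two-sided, 35 arrangements) gave p = 0.0571 for Egr1, where the smallest possible value is 0.0286. With the replicate number as a block the Egr1 call was lost (-1.04, adjusted p = 0.0717), though same-numbered libraries did not deviate together.

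Egr3, which acts in muscle spindles and lymphocytes, spans bases 70077203 to 70082614 of chromosome 14 (plus strand). Its wild-type libraries were at 26.1, 28.9, 26.0 and 24.9 CPM and its knockdown libraries at 21.2, 21.5 and 22.6 CPM. The groups did not overlap, yet Egr3 did not pass among all genes (log2 fold change -0.28, SE 0.14, 95% interval -0.57 to 0.003, adjusted p = 0.135), and its exact permutation p was 0.0286. The Egr1 to Egr3 log2 ratio went from 1.52 ± 0.44 to 0.75 ± 0.38, a difference of -0.77 that did not pass (exact permutation p = 0.0857, adjusted p = 0.107 over 10 pairs).

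Egr2, also called Krox20, a regulator of myelination, spans bases 67535475 to 67542188 of chromosome 10 (plus strand). It had 0, 10, 6 and 2 reads in the wild-type libraries and 0, 0 and 4 in the knockdown libraries. Both groups hold a library at 0, where a count of 0 allows up to 3 reads, 0.163 CPM in wild-type 1. That limit covers counting error only. With 18 reads in one group and 4 in the other, a change was not detectable at this depth, and without the low-count filter edgeR gave an adjusted p of 0.588. Egr4 was lower still, with 3 reads in knockdown 3 and 0 in the other libraries.

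Egr proteins are held back by the corepressors Nab1 and Nab2, and Nab2 is itself an Egr target. Nab2 fell from 61.7 ± 4.40 to 45.6 ± 8.51 CPM (log2 fold change -0.44, adjusted p = 0.0032), while Nab1 rose from 108.7 ± 10.7 to 129.4 ± 8.16 CPM (0.25, adjusted p = 0.0183). The Nab1 call was lost when wild-type 2 (0.19, adjusted p = 0.0654) or knockdown 1 (0.20, adjusted p = 0.131) was left out. Of the 13 genes listed as partners and targets of Egr proteins, 8 were tested, 3 fell and 1 rose, with a median of 0.04. For all tested genes, the shares were 15.3% lower and 14.1% higher. The largest fall was that of Fn1, which encodes the matrix protein fibronectin, from 178.5 ± 33.6 to 117.3 ± 10.7 CPM (-0.61, adjusted p = 0.00918). The Fn1 ranges overlapped, and its call was lost when knockdown 3 was left out (-0.57, adjusted p = 0.0512) and in the fit blocked by replicate number (-0.54, adjusted p = 0.0517). The surface receptor Cd44 fell by 0.21 on the log2 scale (adjusted p = 0.00595), a call lost when libraries were scaled by their totals alone (-0.13, adjusted p = 0.0835). Pdgfa, Tgfb1 and F3 did not pass.

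Ier3, a stress-induced survival protein that binds Mcl1, spans bases 35821684 to 35822923 of chromosome 17 (plus strand) and was the most abundant of the 10 genes. Its wild-type libraries were at 372.5, 356.8, 388.1 and 374.9 CPM and its knockdown libraries at 250.5, 220.2 and 215.5 CPM. The groups were far apart next to the spread within them. The mean went from 373.1 ± 12.9 to 228.7 ± 19.0 CPM, which is 61.3% of wild-type (log2 fold change -0.71, SE 0.067, adjusted p = 4.62e-10; exact permutation p = 0.0286).

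Ier5, which activates heat shock factor 1 together with the phosphatase PP2A, spans bases 155096361 to 155099636 of chromosome 1 (minus strand). It was at 240.8, 243.8, 243.3 and 243.5 CPM in wild-type and at 176.9, 156.4 and 168.0 CPM in knockdown. The wild-type libraries differed by a coefficient of variation of 0.575%, the smallest of the 10 members. The knockdown level was 68.8% of wild-type (log2 fold change -0.54, SE 0.067, adjusted p = 1.16e-07; exact permutation p = 0.0286).

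Ier2, a nuclear protein encoded by a single exon, spans bases 84661331 to 84662852 of chromosome 8 (minus strand). It was at 37.5, 43.8, 37.0 and 32.6 CPM in wild-type and at 29.8, 27.0 and 25.1 CPM in knockdown. The lowest wild-type and the highest knockdown library were close to each other. The log2 fold change was -0.47 (SE 0.13, adjusted p = 0.00619), and the exact permutation p was 0.0571. Of the 3 Ier pairs, 1 differed: Ier3 fell more than Ier5, by 0.17 log2 units (exact permutation p = 0.0286, adjusted p = 0.0408 over 10 pairs). This pair passed only because Klf pairs were tied with it at the smallest possible p. The Ier2 to Ier3 ratio (0.25 higher in knockdown, adjusted p = 0.159) and the Ier2 to Ier5 ratio (0.08, adjusted p = 0.543) did not pass by the same exact permutation test.

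A list of Ier relatives and partners of Ier5 was followed as well. Hsf1, the heat shock factor that Ier5 activates, fell from 36.2 ± 5.54 to 26.0 ± 1.20 CPM (log2 fold change -0.48, adjusted p = 0.00584), and of its classical targets Dnajb1 (0.55, adjusted p = 9.51e-05) and Hsph1 (0.50, adjusted p = 9.17e-06) rose. Its target Hspa1b did not pass (0.14, adjusted p = 0.872), and Hspa1a had too few reads to test. Dnajb1, a co-chaperone of Hsp70, went from 43.0 ± 1.80 to 63.2 ± 5.53 CPM. Ier5l, the closest relative of Ier5, fell by 0.25 on the log2 scale (adjusted p = 0.0298). The Ier5l call was lost when wild-type 2 or 4 or knockdown 1 or 2 was left out, with log2 fold changes of -0.23, -0.25, -0.25 and -0.18 (adjusted p = 0.0553, 0.0532, 0.073 and 0.214), and also once GC content and length were corrected for (-0.13, adjusted p = 0.274), with library totals alone (-0.17, adjusted p = 0.138) and in the fit blocked by replicate number (-0.25, adjusted p = 0.078). In all, 2 of the 11 tested genes of that list fell and 3 rose, with a median of 0.04. Lower were 15.3% and higher 14.1% of all tested genes. The third gene of the list that rose was Mcl1 (0.24, adjusted p = 0.0107).

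Klf4, a regulator of epithelial differentiation and pluripotency, spans bases 55527143 to 55532466 of chromosome 4 (minus strand). It was at 57.2, 63.0, 53.9 and 59.9 CPM in wild-type and at 29.1, 33.3 and 28.5 CPM in knockdown. Every knockdown library was well below every wild-type library. The mean went from 58.5 ± 3.87 to 30.3 ± 2.64 CPM, or 51.8% of wild-type (log2 fold change -0.95, SE 0.11, adjusted p = 5.93e-08; exact permutation p = 0.0286).

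Klf10, which is induced by TGF-beta, spans bases 38291463 to 38300706 of chromosome 15 (minus strand). It was at 32.6, 36.4, 32.7 and 32.4 CPM in wild-type and at 23.1, 24.4 and 23.2 CPM in knockdown. The log2 fold change was -0.51 (SE 0.13, adjusted p = 0.00289; exact permutation p = 0.0286).

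Klf6, a widely expressed factor and a tumour suppressor in several tissues, spans bases 5861482 to 5870394 of chromosome 13 (plus strand). It was at 242.9, 253.7, 275.9 and 258.5 CPM in wild-type and at 255.6, 226.5 and 246.8 CPM in knockdown. These ranges overlapped, and the log2 fold change of -0.09 did not pass (SE 0.067, 95% interval -0.22 to 0.05, adjusted p = 0.375). Klf6 made up 23.1 ± 0.61% of the summed CPM of the 10 genes in wild-type and 30.7 ± 1.13% in knockdown, and Ier3 33.4 ± 0.58% and 28.9 ± 0.91%.

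Klf2, a quiescence factor of endothelium and T cells, spans bases 72319033 to 72321656 of chromosome 8 (plus strand). It was at 8.94, 9.78, 10.2 and 8.70 CPM in wild-type and at 12.5, 10.4 and 13.7 CPM in knockdown, the one member whose knockdown libraries all lay above the wild-type ones. The gap was narrow, from 10.2 to 10.4 CPM. At this depth, 144 to 211 reads per library, the difference did not pass among all genes (log2 fold change 0.37, SE 0.20, 95% interval -0.04 to 0.79, adjusted p = 0.181; exact permutation p = 0.0286).

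**Figure D2:**
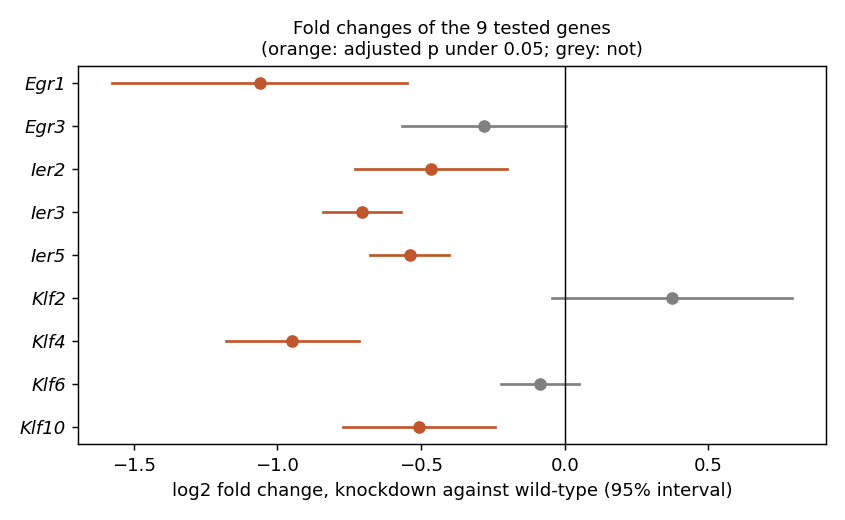
Log2 fold change of knockdown against wild-type for the 9 tested genes, with 95% intervals from the edgeR fit; orange marks an adjusted p under 0.05 and grey the rest. The 6 orange genes lie between -1.06 and -0.47, and the intervals of Egr3, Klf2 and Klf6 include 0.

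The Klf genes changed unequally. Ratios of a pair of genes within a library do not depend on the scaling of that library, and all 6 Klf pairs differed between the groups (exact two-sided permutation test, p = 0.0286 each, the smallest possible; adjusted p = 0.0408 over 10 pairs). The log2 ratio of Klf2 to Klf4 went from -2.62 ± 0.16 to -1.31 ± 0.32, a difference of 1.31. Klf2 also gained on Klf10 by 0.87 and on Klf6 by 0.45. Klf4 lost 0.86 against Klf6 and 0.44 against Klf10, and Klf6 gained 0.42 on Klf10. In each of the 6 pairs the ranges of the ratio did not overlap between the groups. Of the 12 pairs within families, the 2 with Egr2 were left out, and 7 of the other 10 passed. A pair alone at the smallest possible p could not have passed over 10 pairs. The calls therefore rest on 7 pairs being tied there. The 6 Klf ratios share genes, so they are not independent.

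**Figure D3:**
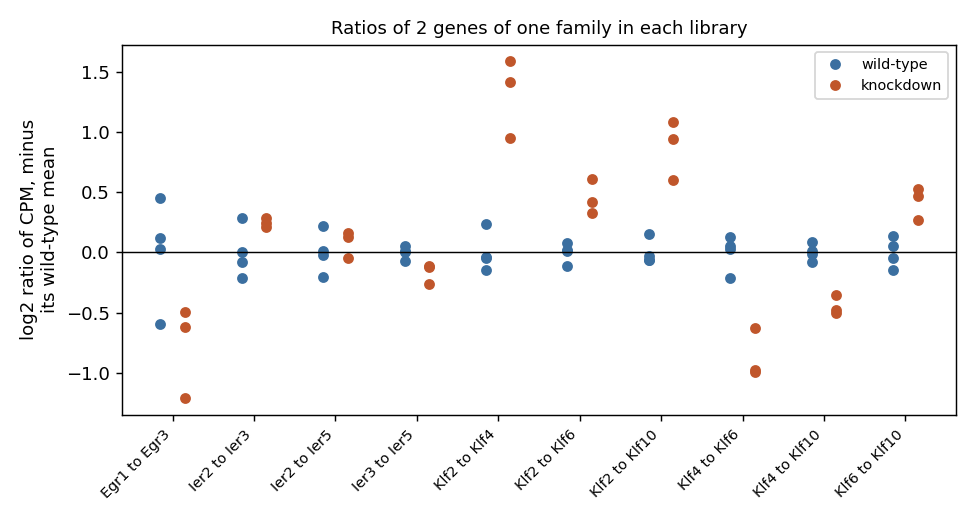
Log2 ratio of the CPM of 2 genes of one family in each library, minus its wild-type mean, for wild-type (blue) and knockdown (orange). The Klf2 to Klf4 ratio shows the widest separation, a mean difference of 1.31, while both ratios with Ier2 overlap between the groups.

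Of 22 other genes of the Klf and Sp families 12 were tested, 4 fell and 8 did not pass, with a median of -0.25. Passing as lower held for 15.3% of all tested genes. Klf9, a factor responsive to glucocorticoid and thyroid hormone, fell from 246.0 ± 14.5 to 128.5 ± 5.57 CPM (-0.94 on the log2 scale, adjusted p = 3.2e-12). Klf13 fell from 180.5 ± 12.4 to 114.8 ± 3.31 CPM (-0.65, adjusted p = 1.8e-08). The broadly acting factor Sp3 (-0.42, adjusted p = 0.000101) and the repressor Klf3 (-0.38, adjusted p = 0.000242) also fell.

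Per kilobase of annotated exon, which allows genes to be compared with each other, the wild-type order was Ier3 (329.8 ± 11.4 CPM per kb), Ier5 (74.1 ± 0.43), Klf6 (58.7 ± 3.13), Ier2 (24.8 ± 3.03), Klf4 (19.2 ± 1.27), Egr1 (17.4 ± 4.29), Klf10 (8.02 ± 0.46), Egr3 (6.01 ± 0.39), Klf2 (5.09 ± 0.38) and Egr2 (0.088 ± 0.089). Of the neighbours in that order, the ranges of Klf4 and Egr1 met and the others did not. Beyond neighbours, Egr1 (12.3 to 22.8 CPM per kb) also reached into the range of Ier2 (21.4 to 28.8). On this scale Ier3 stood above 99.1% of tested genes, and Klf2 above 49.2%. In total, the 10 genes summed to 1092 to 1170 CPM in the wild-type libraries and to 759.9 to 842.0 CPM in the knockdown libraries.

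Within groups, the members' deviations from the group mean were mixed in most libraries. In wild-type 1, 8 of the 9 tested members lay below the mean, by at most 0.084 log2 units. Wild-type 2 had the lowest Egr1 level of its group, 0.46 log2 units below the group mean, and the highest levels of Egr3, Ier2, Klf4 and Klf10, 0.11 to 0.22 above it. Wild-type 3 had the highest Egr1, 0.43 above the mean, and the lowest Klf4, 0.12 below. Among the knockdown libraries, knockdown 3 had the lowest Egr1, 0.38 below, and the highest Klf2, 0.18 above.

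The module of serum response factor, as listed, joined the factor and its partners with genes it acts on, such as Vcl. Srf itself fell from 89.6 ± 8.05 to 57.2 ± 4.95 CPM (-0.65 on the log2 scale, adjusted p = 2.44e-06). Its ternary complex partners Elk1 (0.21, adjusted p = 0.444), Elk3 (-0.15, adjusted p = 0.174) and Elk4 (0.23, adjusted p = 0.725) did not pass. Its coactivator Mkl1, also called MRTF-A, fell by 0.38 on the log2 scale (adjusted p = 0.0213), a call lost when wild-type 4 (-0.29, adjusted p = 0.0972) or knockdown 1 (-0.30, adjusted p = 0.134) was left out, in the fit blocked by replicate number (-0.30, adjusted p = 0.101) and with library totals alone (-0.30, adjusted p = 0.0708). Of the 14 tested genes of the module 4 fell and 10 did not pass, with a median of -0.11. The share of all tested genes that passed as lower was 15.3%. The focal adhesion gene Vcl (-0.95, adjusted p = 9.92e-10) and Fhl2 (-0.86, adjusted p = 5.57e-08) led the falls.

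In the Erk cascade, 5 of 22 tested genes fell and 3 rose, with a median of -0.14. Over all tested genes, 15.3% passed as lower and 14.1% as higher. The receptor gene Egfr fell from 19.3 ± 3.79 to 9.74 ± 0.31 CPM (log2 fold change -0.99, adjusted p = 0.000115), as did the kinase genes Mknk1 (-0.89, adjusted p = 0.000245) and Mapk3 (-0.51, adjusted p = 1.41e-05), which encodes Erk1. Hras rose from 40.8 ± 1.76 to 60.0 ± 4.12 CPM (0.56, adjusted p = 0.000103). Among the feedback inhibitors of Erk signalling 7 of 12 tested genes fell and 5 did not pass, with a median of -0.35. Dusp6, a phosphatase that acts on Erk, fell from 1011 ± 11.7 to 562.6 ± 37.3 CPM (-0.85, adjusted p = 8.58e-13), and Dusp2 (-0.68, adjusted p = 4.95e-05), Errfi1 (-0.53, adjusted p = 0.000495) and Dusp7 (-0.37, adjusted p = 0.000143) fell too.

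Among 33 other tested immediate early genes 13 fell and 3 rose, with a median of -0.31. Beside this, 15.3% of all tested genes passed as lower and 14.1% as higher. Atf3 (log2 fold change -2.01, adjusted p = 2.19e-07), Btg1 (-1.12, adjusted p = 1.11e-10), Myc (-1.01, adjusted p = 3.31e-10) and Rhob (-0.98, adjusted p = 6.19e-10) fell most. Fos, the classical early gene, named after its values were seen, was at 4.44 ± 2.47 and 3.66 ± 0.083 CPM and did not pass (-0.27, adjusted p = 0.651).

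**Figure D4:**
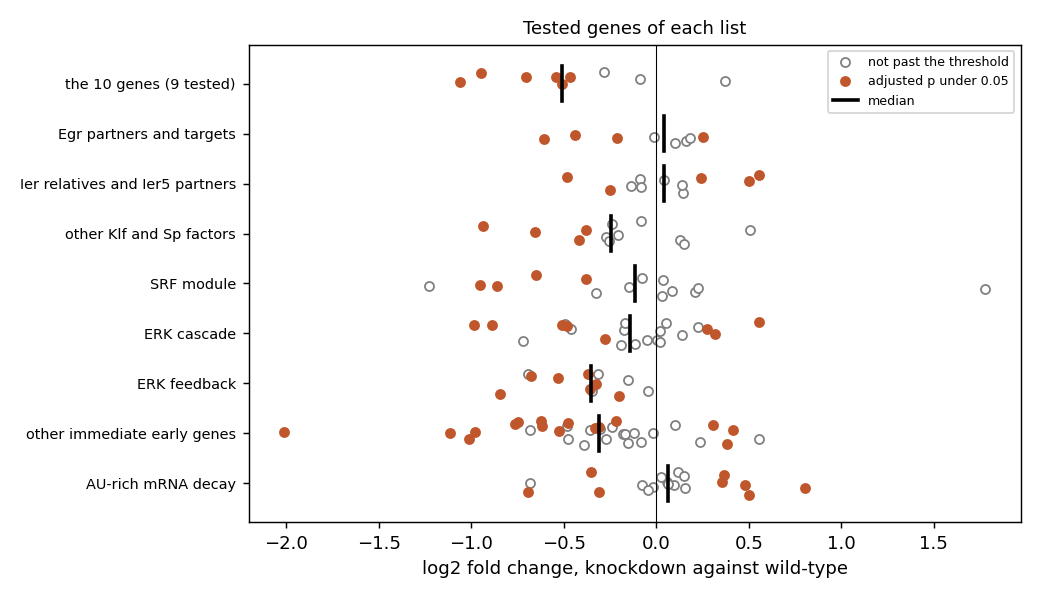
Log2 fold change of the tested genes of each list (points, spread vertically for clarity), filled where the adjusted p was under 0.05, with the list median as a black bar. Medians were -0.51 for the 10 genes, -0.35 for Erk feedback, -0.31 for other immediate early genes and 0.04 for the partners of Egr and of Ier proteins.

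For 1 gene of each family, the genes with the most similar course over the 7 libraries were sought among 7835 tested genes of at least 10 CPM, by the root mean square distance of mean-centred log2 CPM. Nearest to Egr1 were Areg, which encodes the Egf receptor ligand amphiregulin, at a distance of 0.13, Ndrg2 at 0.14 and Acot2 at 0.17, where the median gene was at 0.62. Areg fell from 98.3 ± 16.0 to 50.3 ± 7.41 CPM. Nearest to Ier3 were Cyb5r1 (0.056), Socs5 (0.06) and Ankrd50 (0.061), against a median of 0.39. Nearest to Klf4 were D16Ertd472e (0.059), Antxr2 (0.067) and Itm2b (0.07), against a median of 0.50. These distances are a description over 7 shared libraries, and a difference between the groups enters each of them.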

How the data were processed

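The authors deposited raw read counts per gene symbol for 7 libraries in 1 table. Trimmomatic, STAR and HTSeq and the build mm10 are named, without roles or versions, per the submitters' processing notes. Neither the annotation nor the strand setting is given in the sources used here, nor how reads matching more than 1 gene were treated. The table has 0 further sample columns. The deposited counts went into edgeR 4.0.16 (R 4.3.3) with filterByExpr on the group, TMM factors, and the robust quasi-likelihood test of knockdown against wild-type without covariates. P-values were adjusted over all 11594 tested genes (Benjamini-Hochberg, threshold 0.05). The SE is the absolute log2 fold change over the square root of F. The 95% intervals use its total degrees of freedom. Gene pairs were compared by exact permutation of log2 CPM ratios (prior count 2), adjusted over 10 pairs.

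Positions and exon lengths come from GENCODE M21 (GRCm38), in which 96.3% of tested symbols were found. Exon lengths need not match the authors' annotation. Promoters come from RefSeq (GRCm38.p6). The members, lists and tests were chosen with earlier results of these data known. Named were all members, Ddx54, Nab1, Nab2, Srf, Elk1, Elk3, Elk4, Hsf1 and Egr4. From each list, the text names up to 4 called genes of largest change, or the 2 of smallest p where fewer than 2 passed; from the marker lists these included Cd68, Pdgfra, Col1a1 and Krt19. Krt8, Mcl1, Pdgfa, Tgfb1, F3, Fos, Hspa1a, Hspa1b, Zfp36, Zfp36l1 and Zfp36l2 were named after their values were seen. The statistics were run on simulated counts in which far fewer genes changed than were called here. Those runs therefore do not show the error rate in these data. Alternatives were RLE and upper-quartile factors, no filter, at least 50 counts in 3 libraries, a block for the replicate number, DESeq2 1.42.0, voom in limma 3.58.1, a loess correction for GC content and length (span 0.5), the block together with that correction, equal depth and each library left out. Scaling by library totals alone was added after seeing the data. No pair of replicates agreed within sampling noise (chi-square per degree of freedom 8.31 to 16.3).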

Additional observations from a re-analysis of the deposited data

Results flagged for a closer look

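In the wild-type group of 4, 53 quantities (members, their sum, Ddx54 and other named genes) were tested for 1 library lying far from the remaining 3. This was so for 6, where chance gives about 1 in 20, or 2.65. Among the members, wild-type 1 had 240.8 CPM of Ier5 against 243.3 to 243.8 in the others, a gap that is small beside the fall to 156.4 to 176.9 CPM in knockdown. Wild-type 2 had 36.4 CPM of Klf10 against 32.4 to 32.7. Wild-type 1 also stood apart for Hsf1, at 44.5 CPM against 32.6 to 34.1, for Srf, at 77.6 CPM against 92.4 to 94.5, and for Mapk3, at 150.8 CPM against 122.7 to 127.2. For Krt19, wild-type 3 was low, at 3.66 CPM, with the others at 4.52 to 4.69. The calls of these 6 genes were kept when that library was left out.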

How the results depend on the processing

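The count of members that fell was 6 under all 18 settings except both fits with the block, and the log2 fold changes of Ier2, Ier3, Ier5, Klf4 and Klf10 passed under all 18. Egr3, Klf2 and Klf6 passed under none, with adjusted p of 0.0997 to 0.288, 0.0736 to 0.472 and 0.103 to 0.942.
The log2 fold change of Egr1 was -1.20 to -0.90 with each library left out, -1.04 (adjusted p = 0.0717) with the replicate block and -1.01 (adjusted p = 0.0881) with the block and the GC content and length correction together. The count of 5 members lower in both block fits lacks Egr1. Replicate numbers did not pair the libraries: same-numbered libraries deviated with r = -0.034, -0.027 and -0.006, and 0 of 3 correlated best with their own number.

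Leaving out each library gave 1222 to 1604 genes higher and 1409 to 1700 lower. Egr partners that rose numbered 0 to 1 with a library left out and 2 with library totals alone. Ier relatives that fell numbered 1 to 2 with a library left out, and 1 with the block, with the GC content and length correction, with both and with library totals alone. Genes of the serum response factor module that rose numbered 0 to 1 with a library left out and 1 with DESeq2. Directions reversed for Elk4 without wild-type replicate 1 (-0.020, adjusted p = 0.978, where leaving out a library gave -0.020 to 0.61) and for Cd68 with the block (-0.015) and without wild-type replicate 1 (-0.14), wild-type replicate 4 (-0.068) or Ddx54 knockdown replicate 2 (-0.12, where leaving out a library gave -0.14 to 0.23). Neither gene was called in the main comparison. The cause was not tested. Scaling by library totals alone moved the median of all genes to 0.078 and the balance of calls to 2211 higher and 1342 lower, from 1635 and 1770. Depth limited Egr2, which was tested only without the low-count filter (-1.71, adjusted p = 0.588).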

Other observations

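A further list concerned the decay of mRNAs with AU-rich elements, such as those of many immediate early genes. It held proteins that bind such elements and general decay enzymes. Of its 19 tested genes 5 rose and 3 fell, with a median log2 fold change of 0.07. Higher were 14.1% and lower 15.3% of all tested genes. Dcp2, the decapping enzyme, rose from 33.4 ± 3.04 to 58.6 ± 7.29 CPM (0.81, adjusted p = 1.73e-06, edgeR). The deadenylase gene Cnot6 (0.50, adjusted p = 1.73e-06) and the exosome nuclease gene Dis3 (0.48, adjusted p = 4.19e-05) also rose, while the deadenylase gene Parn fell from 47.8 ± 5.30 to 29.5 ± 2.47 CPM (-0.69, adjusted p = 3.93e-05). Of the Zfp36 family, whose proteins bind AU-rich elements, Zfp36l1 (-0.35, adjusted p = 0.00462) and Zfp36l2 (-0.31, adjusted p = 0.00344) fell. Zfp36 itself did not pass (-0.68, adjusted p = 0.124).

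Of the 2535 tested genes with a span no longer than that of Klf10, the longest member, 15.9% were lower in knockdown and 13.0% higher, against 15.3% and 14.3% of the 8635 longer ones.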
